A study of Homo sapiens with 26 samples.

Results

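The washout comparison set 3 arrays of MDA-MB-468 cells that had been released from the gamma-secretase inhibitor DAPT into a control antibody against 3 arrays of cells that had never met DAPT. These 6 of the 26 arrays of the series were chosen by their labels, as the arrays of the agonism experiment with the treatment agD or DMSO. MDA-MB-468 is an established human breast cancer line of the basal, triple-negative type. The agD plates had 5 µM DAPT for 16 h and plain medium for 2 h. They then received 20 µg/ml of a control IgG, and were harvested after 24 h. The DMSO plates carried 0.05% DMSO over the same 16 h, were washed into plain medium for the same 2 h, and had DMSO added back afterwards and once more at 22 h. The labels name no addition at 22 h for the plates with IgG or beads. Prior DAPT, the IgG and the DMSO additions therefore cannot be told apart in this comparison. Beside these 6 arrays, 3 arrays had DAPT throughout (5 µM, added again at 22 h), 3 had Fc-coated beads after the same washout, 3 had JAG1-Fc beads and 3 had the antibody A13 (20 µg/ml). The protocol speaks of 1 DMSO plate and the labels do not say that the arrays came from separate cultures, so p-values measure only the spread between these arrays, which may be technical.

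NOTCH receptors signal by being cut. When a ligand such as JAG1 pulls on the receptor, gamma-secretase frees its intracellular part, which enters the nucleus and switches on targets such as HES1, NRARP, MYC and, in a self-reinforcing loop, NOTCH3. DAPT blocks that cut, so that uncut receptor can build up at the membrane while the inhibitor is present. A washout lets the cut start again, and for that reason it is often used to find rapid targets. Its endpoint, however, need not be the state of cells that were never inhibited.

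A level below is the log2 of the deposited intensity, and a change is the agD mean minus the DMSO mean on that scale, with its standard error (SE) and a Benjamini-Hochberg adjusted p from limma. A gene was called at an adjusted p under 0.05. Of 19775 genes, 6049 were called, which is 30.6% of the genes tested. Of these, 3548 were higher with agD (17.9%) and 2501 were lower (12.6%). Most changes were small. The median size of a called change was 0.32, and 38 called genes (0.192% of those tested) changed by 2-fold or more, 12 up and 26 down. The 3 agD values lay wholly above or wholly below the 3 DMSO values for 8013 genes (40.5%). All genes together were shifted up by a median of 0.06, and with every array centred on its median over the genes, 2602 genes were called higher (13.2%) and 2996 lower (15.2%). The share of calls that were higher was thus 58.65% as deposited and 46.48% after centring, so no direction of the bulk of genes can be read from these counts. A level in such a lysate cannot separate fewer cells with a transcript from less RNA per cell.

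One DMSO array stood apart. DMSO array 2 lay nearer to the agD arrays than its 2 companions did. The SD of its log2 differences to the agD arrays was 0.19 to 0.24, against 0.27 to 0.31 for DMSO arrays 1 and 3, and limma's array weights gave it 0.398, the lowest of the 18 agonism arrays. Of the 26 genes lowered at least 2-fold, 24 had DMSO array 2 as the DMSO value nearest to agD. Among the 12 raised at least 2-fold there were 10. This position was not particular to large changes: it held for 2176 of the 2501 genes called lower and 2657 of the 3548 called higher. Without that array 6682 genes were called, and 5699 of them were among the 6049. By their mean over the 6 arrays, the epithelial and basal markers EGFR, KRT18, EPCAM, KRT8, KRT5 and CDH1 ranked between the 91.3 and 99.6 percentiles of all genes. Markers of other cell types ranked between 7.18 (PTPRC) and 80.8 (CD14) for leukocytes, 2.56 and 72.7 (COL1A1) for fibroblasts and 14.5 and 61.9 (PECAM1) for endothelial cells. Of 27 markers of fibroblasts, leukocytes and endothelial cells, PDGFRA (0.27 ± 0.09 SE) and CD14 (0.38 ± 0.08 SE) were called higher and 0 were called lower. PDGFRA lost its call after centring on the median over the genes and in 4 of the 6 fits without 1 array. The mean level of these 3 lists ran from 6.46 to 6.80 in the DMSO arrays and from 6.47 to 6.88 with agD, and no value is at 0 on this scale. The part of other cells in the results was not tested. KRT14, a basal keratin, ranked at the 63.4 percentile and VIM, also listed as a marker of this line, at 73.8. Among receptor genes listed as low in it, the oestrogen receptor gene ESR1 ranked at 51.4, ERBB2 at 70.8 and PGR at 18.9. The values used here carry no detection calls.

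The genes that rose most after washout included several enzymes and regulators of the amino acid response. LBH, a transcriptional cofactor of limb bud and heart development, measured 8.30, 8.53 and 8.14 in the DMSO arrays and 9.59, 10.09 and 9.69 with agD. The 2 sets were separated by more than 1 log2 unit, and the change was 1.47 ± 0.16 (SE; adjusted p = 7.86e-06). CTH, the enzyme that makes cysteine from cystathionine, went from 8.15, 8.02 and 8.06 to 9.36, 9.68 and 9.35, a change of 1.39 ± 0.12 (adjusted p = 8.79e-07). Its second probe set rose by 1.01. Neither gene was called between continued DAPT and DMSO, where the changes were 0.01 (adjusted p = 0.977) and 0.02 (adjusted p = 0.934). ATF3, a stress-induced transcription factor, followed with 8.62, 8.59 and 8.82 against 9.90, 10.00 and 9.68 (change 1.19 ± 0.12, adjusted p = 3.73e-06), again with a continued DAPT level of 8.67. CCN1, a secreted matricellular protein, rose by 1.14 ± 0.08 and its DAPT arrays stood between at 10.99, with DMSO at 10.67, 10.77 and 10.62 and agD at 11.69, 11.98 and 11.81. The others among the 15 largest rises were ID4, TRIL, IGFBP5, CCDC71L, FASN, STC2, ZSCAN4, TRIB3, CHAC1, CD55 and SESN2, with changes of 0.98 to 1.30. ZSCAN4 was dim, at 5.33 to 5.74 in the DMSO arrays. FASN rose by 1.04 ± 0.14 on its brighter probe set, and its second probe set changed by -0.0047. For IGFBP5 the probe sets other than the brightest changed by -0.06 to 0.35. All 15 were still called when any 1 of the 6 arrays was left out.

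**Figure D1:**
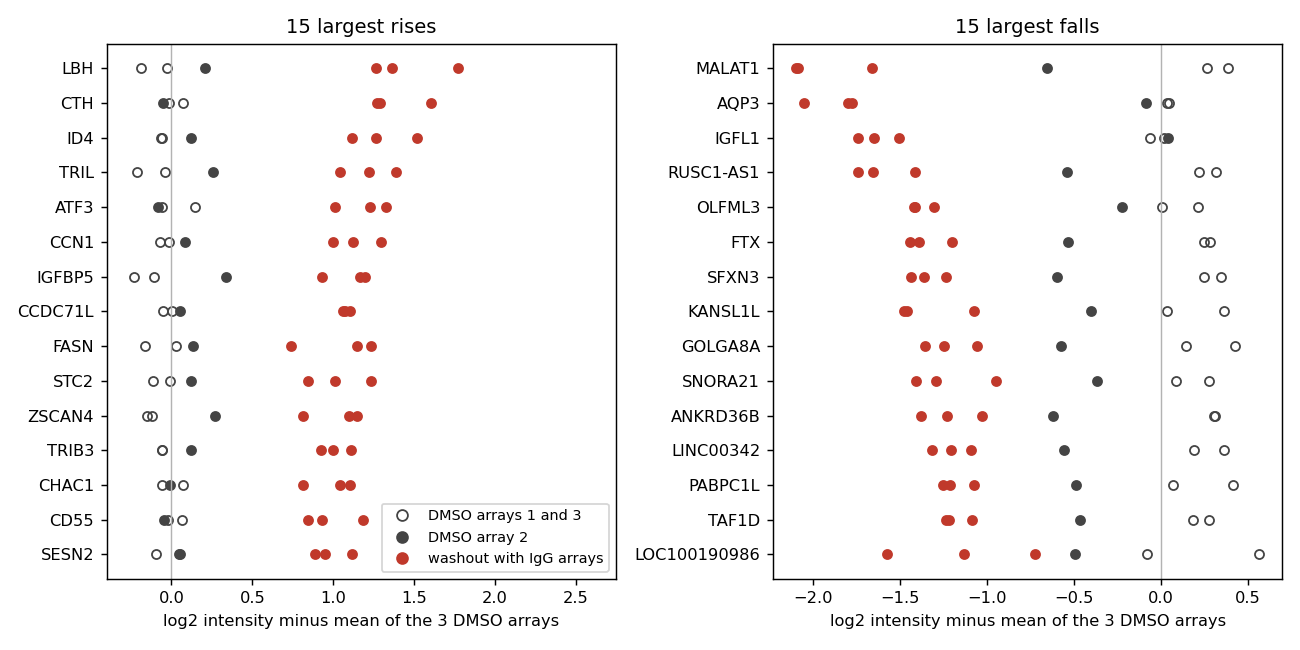
Each row is a gene and each point an array: log2 intensity minus the mean of the 3 DMSO arrays, for the 15 largest rises (left) and 15 largest falls (right) with non-overlapping arrays. Grey points are DMSO arrays (filled: array 2) and red points the washout arrays with IgG. Among the falls, DMSO array 2 lies toward the red points for MALAT1, RUSC1-AS1, FTX, SFXN3 and TAF1D, while for IGFL1 the 3 DMSO arrays lie together.

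Of the lists examined, the amino acid response had the largest share of members called higher. Its central factor, ATF4, is translated when the kinases that sense amino acid shortage, ER stress or other insults slow general translation, and it switches on enzymes, transporters and tRNA synthetases. Of 28 measured genes of the ATF4 and amino acid stress list, 23 were called higher (82.1%, against 17.9% of all genes) and 0 lower, with a median change of 0.44 against 0.06 over all genes. Continued DAPT had 2 called higher and 3 lower of the same 28 (of all genes 20.7% were called in that comparison, which shares the DMSO arrays, 12.4% higher and 8.31% lower), with a median of -0.01. Among the members, TRIB3, a pseudokinase that feeds back on ATF4, rose by 1.01 ± 0.07, CHAC1, which degrades glutathione, by 0.99 ± 0.10, STC2, a secreted glycoprotein, by 1.03 ± 0.11, and SESN2, a leucine-linked brake on mTORC1, by 0.98 ± 0.10. CHAC1 measured 8.57, 8.62 and 8.70 in DMSO and 9.67, 9.73 and 9.44 with agD, with continued DAPT at 8.53. ATF4 itself rose by only 0.16 and DDIT3, the stress factor CHOP, by 0.36, while ATF5 (-0.18), PSPH (-0.03), VEGFA (0.16), GDF15 (0.26) and FGF21 (0.28) were not called. ASNS, the asparagine synthetase often used as the marker of this response, rose by 0.28, beside a change of -0.34 with continued DAPT.

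Transporters and synthetases moved the same way. Of 12 amino acid transporters, 9 were called higher and 1 lower, with a median of 0.67. Between agD and DMSO, 17.9% of all genes were called higher and 12.6% lower. SLC6A9, a glycine carrier, changed by 0.79 ± 0.09, SLC1A5, which brings in glutamine, by 0.75 ± 0.09, SLC7A1, for cationic amino acids, by 0.74 ± 0.08, and SLC7A11, the cystine importer, by 0.72 ± 0.11. SLC1A5 stood at 10.94, 11.08 and 10.95 in DMSO and at 11.81, 11.84 and 11.57 with agD. The lysosomal carrier SLC36A1 was the member called lower (-0.18). SLC1A4 rose by 0.71, with 3 of its 4 other probe sets called higher and 1 called lower at -0.33. Of 17 aminoacyl-tRNA synthetases, which charge tRNAs with their amino acids, 13 were called higher and 1, FARSB, lower (-0.20), with a median of 0.28. AARS1, for alanine, rose by 0.77 ± 0.07 from 10.81, 10.99 and 10.73 to 11.65, 11.65 and 11.55, and GARS1, for glycine, by 0.62 ± 0.06. YARS1, for tyrosine, rose by 0.51 on its brighter probe set and its second probe set was called lower at -0.44. Of all genes, 36.0% were called between Fc beads and DMSO, 21.7% higher and 14.3% lower, and 26 of the 28 stress genes were higher and 1 lower there. These Fc bead arrays, which shared the washout but had no IgG, were higher still than agD for CTH (by 0.62, adjusted p = 0.00713), ATF3 (0.62, adjusted p = 0.00846), STC2 (0.77, adjusted p = 0.00129) and AARS1 (0.28, adjusted p = 0.0492). Without DMSO array 2 the counts called higher were 23 of 28, 10 of 12 and 13 of 17.

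The promoters of these genes were searched for the composite element that ATF4 binds with a C/EBP partner, written here as TGATGNAA and its reverse complement, because the members moved together. RefSeq promoters (GRCh38.p14) ran from 250 bases before to 50 after a transcription start. Of the 45 genes of the 3 amino acid lists that were called higher, 39 had a promoter in the table and 14 of these (35.9%) held a match in at least 1 promoter, against 1217 of all 27305 genes (4.46%). Counted by promoter it was 14 of 60 (23.3%), against 1270 of all 35093 promoters (3.62%) and 2.44% of the promoters of all genes called higher. Of the 8 listed genes not called higher that had a promoter, 2 held one. The lists were drawn from genes known as ATF4 targets, so this share describes the lists and is no support from these data, and a match is not a binding site. The windows below are from members called higher whose match lay wholly before the start, with changes from 0.285 (ASNS) to 1.19 (ATF3). Not every gene with such a match is shown. Each window is on the gene's strand 5′ to 3′ with the match in capitals.
ATF3 (chr1:212565170-212565269, plus strand): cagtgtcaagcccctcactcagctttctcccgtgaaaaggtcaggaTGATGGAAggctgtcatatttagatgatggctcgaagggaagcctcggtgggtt
CHAC1 (chr15:40953221-40953315, plus strand): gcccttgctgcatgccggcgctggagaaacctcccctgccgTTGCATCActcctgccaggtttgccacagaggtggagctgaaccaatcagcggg
SLC1A5 (chr19:46784858-46784957, minus strand): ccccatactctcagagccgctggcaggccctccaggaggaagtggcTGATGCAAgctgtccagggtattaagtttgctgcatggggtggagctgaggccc
AARS1 (chr16:70289640-70289739, minus strand): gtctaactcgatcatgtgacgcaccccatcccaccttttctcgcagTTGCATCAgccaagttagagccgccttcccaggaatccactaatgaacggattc
ASNS (chr7:97872423-97872522, minus strand): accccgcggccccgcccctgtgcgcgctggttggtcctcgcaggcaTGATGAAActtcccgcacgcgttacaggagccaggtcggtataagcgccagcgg
The match began 191 bases before the start of ATF3, 209 before CHAC1, 97 before SLC1A5, 187 before AARS1 and 68 before ASNS. CHAC1 and AARS1 carry it on the opposite strand, as TTGCATCA. The RBPJ core TGGGAA, to which the cut NOTCH receptor is recruited, lay on either strand in at least 1 promoter of 28.1% of all genes and of 28.2% of the genes called higher. Counted by promoter, it was 24.0% and 20.55%.

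Other stress programmes moved less or in mixed directions. For comparison, 17.9% of all genes were called higher and 12.6% lower. Of 23 genes of protein folding in the endoplasmic reticulum, 9 were called higher and 2 lower, with a median of 0.12. ERN1, the sensor IRE1, rose by 0.63 ± 0.10, XBP1, its target, by 0.57 ± 0.08 and the chaperone HYOU1 by 0.55 ± 0.08. The principal chaperone HSPA5 was not called (0.14), and DNAJB9 (-0.29) and MANF (-0.18) were called lower. Continued DAPT gave 8 called higher of the same 23, with a median of 0.16, beside 12.4% of all genes called higher with continued DAPT. XBP1 measured 12.43 there, against 11.95, 12.12 and 11.95 in DMSO and 12.45, 12.73 and 12.57 with agD. Of 14 heat-shock genes 5 were called higher and 2 lower, the latter being HSPE1 (-0.40 ± 0.06) and CHORDC1 (-0.28 ± 0.08). With every array centred on its median over the genes, 2 heat-shock genes were called higher and 2 lower. Of 20 genes of the NRF2 oxidative response, 4 were called higher and 6 lower, or 2 and 8 after that centring. SLC7A11, which is also on the transporter list, was one of the former, while the aldo-keto reductases AKR1C3 (-0.48 ± 0.12), AKR1C2 (-0.32 ± 0.06) and AKR1C1 (-0.29 ± 0.07) and thioredoxin, TXN (-0.32 ± 0.06), fell. Of 18 genes of the p53 and DNA damage list, 7 were called higher and 3 lower. GADD45B rose by 0.78 ± 0.09 and GADD45A by 0.69 ± 0.09. CDKN1A, the cell cycle inhibitor p21, rose by 0.49 ± 0.07, but continued DAPT held it higher still (9.74, against 8.79, 9.07 and 8.96 in DMSO and 9.38, 9.46 and 9.46 with agD). FAS, the death receptor, fell by 0.49.

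**Figure D2:**
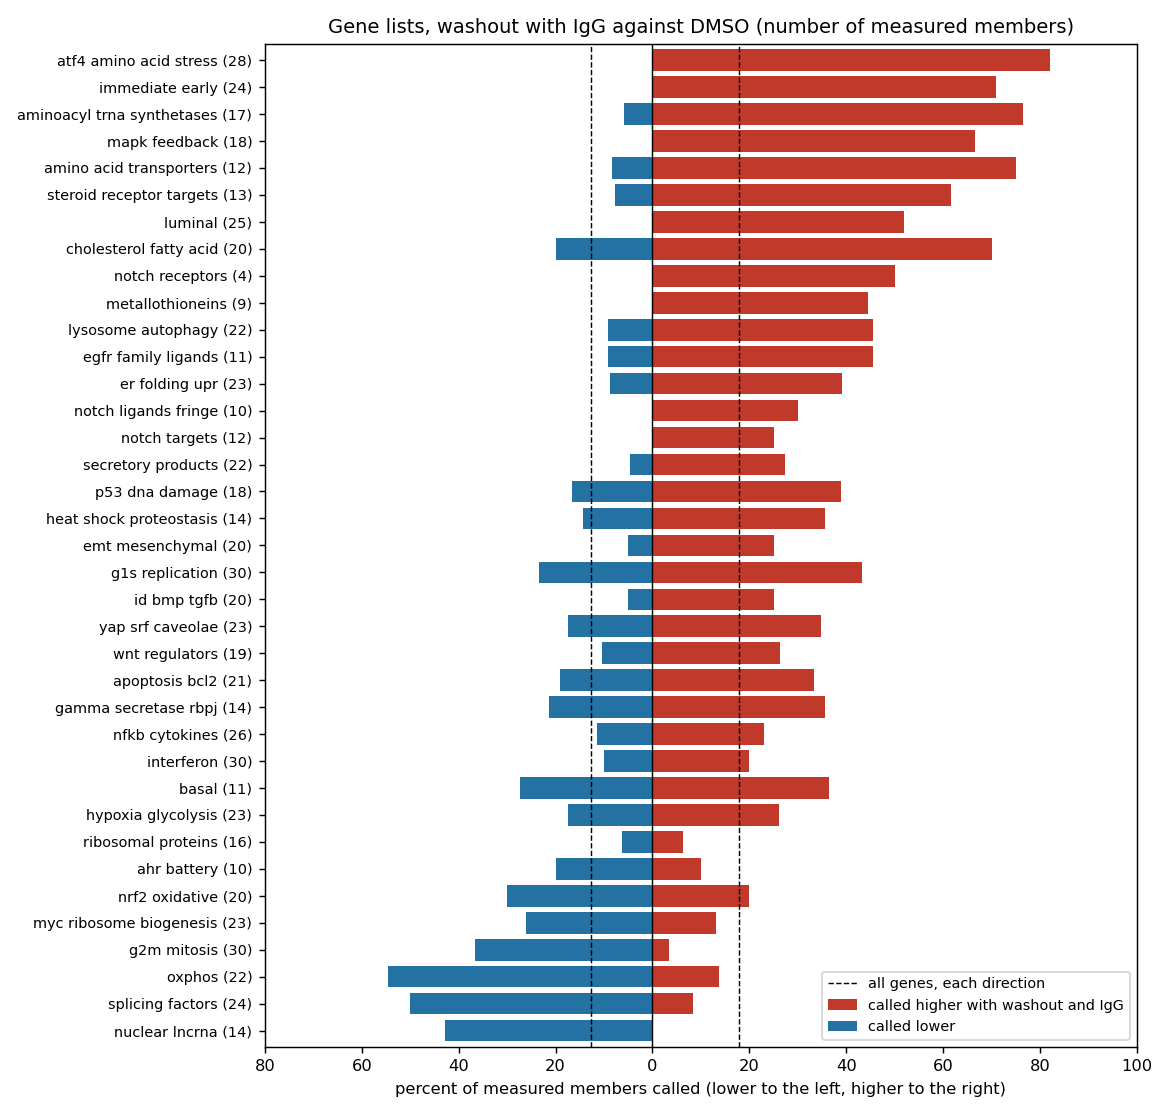
Bars give the percent of each list's measured members (number in brackets) that were called higher (right, red) or lower (left, blue) with washout and IgG against DMSO. Dashed lines mark the share of all genes called in each direction, 17.9% higher and 12.6% lower. The ATF4, tRNA synthetase, transporter and immediate early lists reach furthest to the right, and the oxidative phosphorylation, splicing factor and nuclear RNA lists furthest to the left.

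Growth-factor response genes were also above the DMSO level a day after washout. Of 24 immediate early genes, which respond within minutes to mitogens and stress, 17 were called higher and 0 lower, with a median of 0.30. Over all genes 17.9% were called higher and 12.6% lower. JUN rose by 0.87 ± 0.10 (10.08, 10.23 and 9.94 to 10.89, 10.98 and 10.98), JUND by 0.83 ± 0.07, KLF4 by 0.64 ± 0.09 and FOSL2 by 0.55 ± 0.08. ATF3 is counted in this list too. Of 18 genes of MAPK feedback, 12 were called higher and 0 lower, with a median of 0.49. Continued DAPT, without washout, had 10 of the 24 called higher and 1 lower, with a median of 0.15. Of the 18 it had 7 higher and 0 lower, with a median of 0.19. In that comparison 12.4% of all genes were called higher and 8.31% lower. The MAPK feedback genes encode brakes on the EGFR and ERK pathway, and the order of groups differed among them. ERRFI1, an inhibitor of EGFR, measured 10.22, 10.18 and 10.28 in DMSO, 10.13 with continued DAPT and 11.14, 11.18 and 11.09 with agD, a change of 0.91 ± 0.06. DUSP6, the ERK phosphatase, instead measured 8.34, 8.56 and 8.48 in DMSO, 9.52 with DAPT and 9.10, 9.31 and 9.20 with agD. For DUSP6 the agD arrays were below the DAPT arrays by 0.32 (adjusted p = 0.0134), while for ERRFI1 they were above by 1.003 (adjusted p = 4.97e-09). SPRED2 and DUSP4 lay with DUSP6, raised by DAPT to 9.58 and 9.57 and with agD by 0.81 and 0.66 over DMSO. EGFR itself rose by 0.42 ± 0.05, in 4 of its 8 other probe sets too, whereas 2 dimmer probe sets of the gene were called lower (-0.94 and -0.89). LRIG1, which lowers EGFR protein, rose by 0.77 ± 0.06, HBEGF, an EGFR ligand, by 0.52 ± 0.09 and ERBB2 by 0.50 ± 0.07, and the ligand BTC fell by 0.45.

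Some genes of the Notch pathway itself ended above the never-treated level. Of the 4 receptors, NOTCH3 was called higher (0.60 ± 0.14, adjusted p = 0.00328) and NOTCH2 as well (0.40 ± 0.07, adjusted p = 0.000292). NOTCH3 measured 11.13, 11.13 and 11.25 in DMSO and 11.85, 12.001 and 11.46 with agD, so that the lowest agD array stood closest to DMSO. Its second, dimmer probe set changed by 0.13 and was not called. NOTCH2 was not lowered by DAPT but raised (10.67, against 10.30, 10.46 and 10.46 in DMSO), and the difference between agD and DAPT was not called (0.14, adjusted p = 0.238). NOTCH1 changed by 0.19 (adjusted p = 0.119) and NOTCH4 by 0.22 (adjusted p = 0.109). Of 10 ligand and fringe genes, JAG1 (0.31 ± 0.07), the fringe glycosyltransferase RFNG (0.25 ± 0.07) and the ligand-like DLK2 (0.22 ± 0.08) were called higher and 0 lower. DLK1 (0.25), JAG2 (0.13), DLL4 (0.09), MFNG (0.06), DLL1 (0.02), LFNG (-0.05) and DLL3 (-0.09) were not called. Thus 30.0% of the 10 were called, near the 30.6% of all genes. DLK2 lost its call when any of 5 of the 6 arrays was left out, and RFNG with any of 2.

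Of 12 canonical targets, 3 were called higher and 0 lower, against 17.9% of all genes called higher. The share of the 12 called in either direction was below the 30.6% of all genes. After centring on the median over the genes, 2 of the 12 were called higher, beside 13.2% of all genes. Without DMSO array 2 it was 4 of the 12. By these counts the targets as a list were not clearly set apart from all genes. The arrays did not overlap for 7 of the 12, and for 40.5% of all genes. The 3 called higher were NOTCH3, HES1 and NRARP. HES1, a repressor of differentiation, measured 10.38, 10.54 and 10.38 in DMSO, 10.04 with DAPT and 10.66, 10.77 and 10.73 with agD, a change of 0.29 ± 0.06 (adjusted p = 0.00219). A second probe set of HES1 rose by 0.23 and another, dim one changed by -0.0594. NRARP, which feeds back on the receptor's nuclear complex, changed by 0.22 ± 0.07 (adjusted p = 0.0216), and it lost its call when any of 4 of the 6 arrays was left out. HES4 (0.17), HES2 (0.15), HEY2 (0.20), HEYL (0.13), HES7 (0.10), DTX1 (0.10), HES6 (0.09), HES5 (0.08) and HEY1 (0.08) were above DMSO on average and not called. Against continued DAPT, which shares the agD arrays, HES1 was higher by 0.67 and NRARP by 0.41 (adjusted p = 0.000773). MYC, a Notch-driven oncogene, stood at 10.68, 10.64 and 10.59 in DMSO, 9.43 with DAPT and 10.74, 11.01 and 10.89 with agD. Its excess over DMSO was 0.24 ± 0.07 (adjusted p = 0.0159), beside a difference of 1.45 from the DAPT arrays, and it lost its call in 2 of the 6 fits without 1 array. Of the 14 genes that cut the receptor or work with it in the nucleus, 5 were called higher and 3 lower. The coactivators MAML2 (0.47 ± 0.08) and MAML1 (0.25 ± 0.07), the protease ADAM10 (0.29 ± 0.06) and the gamma-secretase subunits NCSTN (0.21) and APH1A (0.16) rose. The subunit PSENEN (-0.32 ± 0.08) and the Notch inhibitors NUMB (-0.34 ± 0.11) and NUMBL (-0.33 ± 0.09) were called lower, NUMBL with a second probe set called higher at 0.27. NUMB was dim and its arrays overlapped, at 4.49, 4.22 and 4.75 in DMSO and 4.10, 4.33 and 4.02 with agD. After centring on the median over the genes, 3 of the 14 were called higher and 3 lower. Without 1 of the 6 arrays MAML1 lost its call in 2 fits and NUMB in 4.

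**Figure D3:**
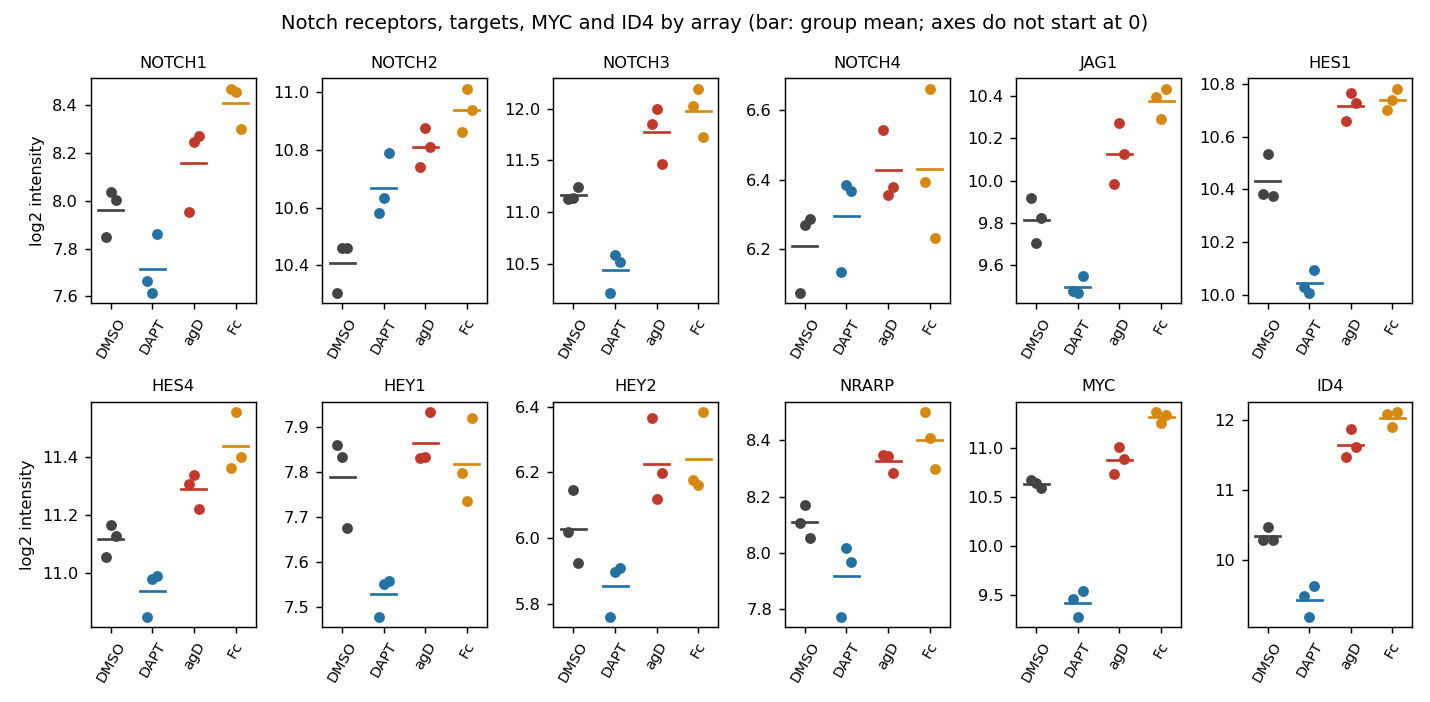
Each panel is a gene, each point an array and each bar a group mean, in log2 intensity; groups are DMSO, continued DAPT, washout with IgG (agD) and washout with Fc beads (Fc), 3 arrays each, on axes that do not start at 0. NOTCH3, HES1, MYC and ID4 are lowest with DAPT and higher in agD than in DMSO, while NOTCH2 is higher in all 3 DAPT-exposed groups than in DMSO.

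Whether single genes returned to, passed or missed the never-treated level was examined on genes chosen elsewhere. The antagonism experiment, whose arrays are not among those compared here, gave 30 genes lowered and 40 raised by DAPT (limma, adjusted p under 0.05). In that experiment DAPT or DMSO was given together with the control antibody, at a lower antibody dose than in the agonism arrays. Its labels name no DAPT pretreatment and no washout, so it was not matched in design to the agonism experiment. Of the 30 lowered by DAPT there, 12 were called above DMSO after washout, 9 below and 9 not called, with a median of 0.09. Of the 40 raised, 20 were above DMSO, 6 were below and 14 not called, with a median of 0.22. Over all genes 17.9% were called higher and 12.6% lower, with a median of 0.06, so the 6 of 40 below DMSO and the median of the lowered set lie near the background. Genes on both sides of DMSO thus occurred in both sets. ID4, an inhibitor of basic helix-loop-helix factors, had fallen by 1.10 with DAPT in the antagonism experiment. In the agonism arrays it measured 10.28, 10.47 and 10.29 in DMSO, 9.43 with DAPT and 11.46, 11.87 and 11.61 with agD, which is 1.30 ± 0.12 above DMSO (adjusted p = 1.81e-06). NOTCH3, the leucine transporter SLC7A5 (0.67 ± 0.09), GAS1 (0.43 ± 0.10), the protease inhibitor SERPINA3 (0.34 ± 0.07), IER5 (0.29 ± 0.06), TRIB2 (0.29 ± 0.05), HES1, the semaphorin receptor NRP1 (0.26 ± 0.09) and MYC were likewise called above the DMSO level. Of these, SLC7A5 was not called between continued DAPT and DMSO in the agonism arrays (-0.01, adjusted p = 0.952). OLFM4 (-0.07, adjusted p = 0.711) and the replication factor MCM10 (-0.02, adjusted p = 0.893) were not distinguished from the DMSO level after washout.

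Among the DAPT-lowered genes called below DMSO, several were lower after washout than with continued DAPT. IGFL1, a secreted growth-factor-like protein, measured 9.39, 9.50 and 9.47 in DMSO, 8.62 with continued DAPT and 7.71, 7.80 and 7.94 with agD. It was lower with agD than with DAPT by 0.80 (adjusted p = 6.46e-06) and lower than DMSO 3.10-fold. OLFML3, a secreted matrix glycoprotein, had the same order of groups, with 10.06, 9.63 and 9.86 in DMSO, 9.22 with DAPT and 8.43, 8.54 and 8.43 with agD (below DAPT by 0.75, adjusted p = 3.45e-05). CAV1, the coat protein of caveolae, measured 10.89, 10.59 and 10.74, then 10.39 with DAPT and 9.65, 9.85 and 9.73 with agD, and its second probe set fell by 0.97. CAV2, its partner, fell by 0.56 ± 0.09. The hormone subunit CGA was lowered by 1.07 ± 0.11 against DMSO, ENOX1 by 0.64, CYP1B1 by 0.56 ± 0.07 and S100A3 by 0.50. CGA (DAPT mean 7.77, DMSO mean 7.80) and CYP1B1 (12.65 and 12.49) were not called between continued DAPT and DMSO in the agonism arrays. S100A3 measured 9.56, 9.34 and 9.60 in DMSO, 8.24 with DAPT and 9.15, 9.04 and 8.81 with agD, between the other 2 groups.

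Among genes that DAPT had raised, IGFBP5, which binds insulin-like growth factors, measured 7.25, 7.70 and 7.13 in DMSO, 9.92 with DAPT and 8.29, 8.53 and 8.55 with agD. On this brightest probe set it was 1.10 ± 0.16 above DMSO (adjusted p = 6.47e-05). Its other probe sets changed by -0.06 to 0.35, and 1 of them was called, at 0.34. CYP4Z1, a mammary cytochrome P450, was above even the DAPT arrays (10.56, 10.62 and 10.67 against a DAPT mean of 10.44, adjusted p = 0.0477), with DMSO at 9.81, 9.84 and 9.86. TP53INP2 (0.77 ± 0.10), ELAPOR1 (0.70 ± 0.08), CLCA2 (0.65 ± 0.08) and the sialyltransferase ST6GAL1 (0.60 ± 0.08) were also called higher. CLCA2 and CYP4Z1 were lower in the Fc bead arrays than with agD, by 1.05 (adjusted p = 3.94e-07) and 0.53 (adjusted p = 3.19e-05). The G protein regulator RGS2 (-0.69 ± 0.10), the acetyltransferase NAT1 (-0.58 ± 0.07) and the protease TMPRSS11E (-0.51 ± 0.13) were called lower. RGS2 (0.10, adjusted p = 0.563) and NAT1 (0.18, adjusted p = 0.1) were not called between continued DAPT and DMSO in the agonism arrays. AGR2, a secretory chaperone, was not called at -0.08 (adjusted p = 0.463).

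**Figure D4:**
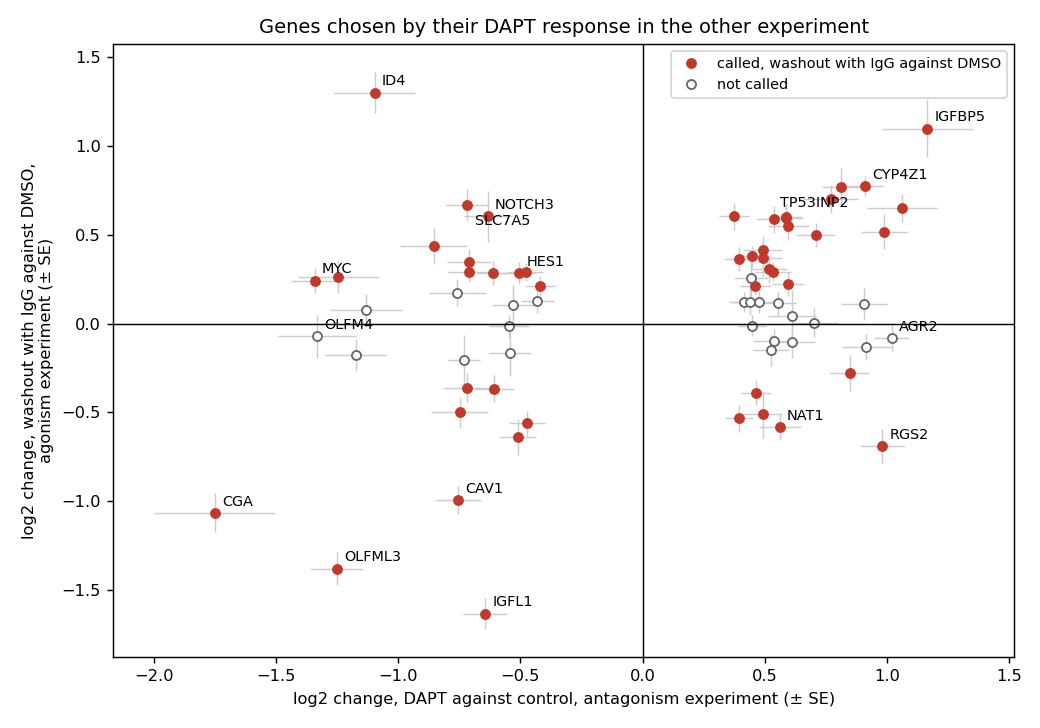
Each point is 1 of the 70 genes chosen by their DAPT response in the antagonism experiment: log2 change with DAPT there (x, ± SE) against log2 change of washout with IgG over DMSO in the agonism experiment (y, ± SE); filled points were called in the latter. Points above and below 0 occur on both sides, with ID4 at 1.30 and IGFL1 at -1.63 both among the genes DAPT lowered.

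Several genes were lower than DMSO after washout while continued DAPT left them at or above it. AQP3, a water and glycerol channel, was the second largest fall: 10.82, 10.69 and 10.81 in DMSO, 11.01 with DAPT and 8.72, 8.97 and 8.99 with agD. On this brightest probe set it was 3.68-fold below DMSO (adjusted p = 8.88e-09), and there the 3 DMSO arrays, array 2 included, lay within 0.13 of each other. Its other 2 probe sets were called lower by less, at -0.63 and -0.56. CYP1A1, the classic target of the aryl hydrocarbon receptor, measured 8.32, 7.84 and 7.70 in DMSO, 9.13 with DAPT and 7.11, 6.87 and 7.02 with agD. CYP1B1, a second target, fell. AHR itself changed by 0.27 ± 0.08, and it lost its call after centring on the median over the genes and in 3 of the 6 fits without 1 array, DMSO array 2 among them. The Wnt inhibitor DKK1 (10.25, 9.91 and 10.23 in DMSO, 10.93 with DAPT, 9.39, 9.54 and 9.52 with agD) and WNT5A, a non-canonical Wnt ligand (7.11, 7.19 and 6.96, then 7.82, then 6.31, 6.52 and 6.89), had the same order of groups. NFKBIZ, an inducible NF-kB cofactor, fell by 0.77 ± 0.13 and its DAPT arrays (11.92) were at the DMSO level. In its list of 26 NF-kB and cytokine genes 6 were called higher and 3 lower, so that 34.6% were called, near the 30.6% of all genes. The risers were mostly components of the pathway: RELB (0.69 ± 0.09), NFKB1 (0.52 ± 0.07), NFKBIA (0.47 ± 0.08) and NFKB2 (0.30), with the adhesion molecule ICAM1 (0.54 ± 0.10). The cytokine IL1A fell by 1.14 on its brighter probe set, with DMSO arrays at 7.54, 6.61 and 7.49, and its other probe set was not called (0.12).

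Of 20 cholesterol and fatty acid genes 14 were called higher and 4 lower, with a median of 0.38. The shares over all genes were 17.9% higher and 12.6% lower. FASN, INSIG1 (0.61 ± 0.09), SCD (0.59 ± 0.05), DHCR7 (0.58 ± 0.07) and the regulators SREBF2 (0.50 ± 0.07) and SREBF1 (0.36) rose, and STARD4 (-0.42), SC5D (-0.27), NSDHL (-0.18) and MSMO1 (-0.18) fell. Continued DAPT had 8 of the same genes called higher. Of 25 luminal genes 13 were called higher and 0 lower, against 18 and 1 with continued DAPT. With continued DAPT, 12.4% of all genes were called higher and 8.31% lower. CDH1, the epithelial cadherin, rose by 0.54 ± 0.07 and GATA3 by 0.48 ± 0.07. FOXA1 rose by 0.42 ± 0.08 on its brighter probe set, while the other probe set assigned to it was called lower at -1.63, so that the gene's direction depends on the probe set. Among 11 basal genes, the keratins KRT16 (-0.66 ± 0.07), KRT14 (-0.44 ± 0.07) and KRT15 (-0.43 ± 0.07) fell, and CDH3, P-cadherin (0.61 ± 0.07), and ITGA6 (0.47 ± 0.08) rose. The actin and YAP-linked CCN2 (0.96 ± 0.14), AMOTL2 (0.64 ± 0.08) and ACTN1 (0.56 ± 0.09) rose with CCN1, and of 23 genes of that list 8 were called higher and 4 lower, the caveolar CAV1, CAV2 and CAVIN1 (-0.22) and THBS1 (-0.23). Steroid receptor targets had 8 of 13 called higher and 1 lower. TSC22D3, the glucocorticoid-induced GILZ, rose by 0.71 ± 0.05, from 12.48, 12.51 and 12.46 to 13.21, 13.21 and 13.16, while SGK1 (-0.28) fell and FKBP5 was not called (0.14).

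The other lists held changes in both directions or few calls, beside 17.9% of all genes called higher and 12.6% lower. Of 22 secretory product genes 6 were called higher and 1, MSMB, lower. Mammaglobin, SCGB2A2, measured 7.93, 7.96 and 8.24 in DMSO, 9.99 with DAPT and 8.57, 8.57 and 8.29 with agD, and lost its call in 4 of the 6 fits without 1 array. Of 22 lysosome and autophagy genes 10 were called higher and 2 lower, with the cholesterol exporter NPC1 at 0.52 and the protease CTSD at 0.44. Of 20 genes of BMP and TGF-beta signalling 5 were called higher and 1, ID1, lower (-0.37), the former including ID4, TGFB2 (0.48) and SMAD7 (0.45). Of 20 mesenchymal genes 5 were higher and 1 lower. Fibronectin, FN1, rose by 0.86 on its brightest probe set, and 3 of its other 6 probe sets were called higher. Of 30 interferon genes 6 were higher and 3 lower, of 23 hypoxia and glycolysis genes 6 and 4, of 21 apoptosis regulators 7 and 4, of 19 Wnt regulators 5 and 2, and of 9 metal response genes 4 and 0. After centring on the median over the genes these counts were 6 and 6 for interferon, 4 and 4 for apoptosis, 3 and 2 for Wnt and 2 and 0 for metal response genes, and 4 and 2 for the mesenchymal list. Before centring, 30.0% of the interferon, mesenchymal and BMP and TGF-beta lists and 31.8% of the secretory list were called. These shares lie near the 30.6% of all genes.

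Mitosis and respiration genes had more members called lower than higher, whereas 12.6% of all genes were called lower and 17.9% higher. Of 30 genes of mitosis, 11 were called lower and 1, TPX2, higher (0.18), with a median of -0.11. CDK1 fell by 0.42 ± 0.07 (13.21, 13.09 and 13.24 to 12.75, 12.69 and 12.84), CCNB1 by 0.36 ± 0.05 and BIRC5 by 0.36 ± 0.05. Continued DAPT had 20 of the 30 called lower, with a median of -0.24, where 8.31% of all genes were called lower and 12.4% higher. The difference in CDK1 between agD and DAPT was not called (-0.01, adjusted p = 0.963). Replication genes divided, with 13 of 30 called higher and 7 lower. MCM2 rose by 0.49 ± 0.09, and GINS2 (-0.65 ± 0.07), GINS1 (-0.62 ± 0.08), CCNE2 (-0.63 ± 0.09) and POLE2 (-0.57 ± 0.08) fell. Of 23 MYC and ribosome biogenesis genes, 3 were called higher (MYC, NCL at 0.28 and FBL at 0.18) and 6 lower, led by MRTO4 (-0.62 ± 0.07), NIP7 (-0.54 ± 0.09) and WDR12 (-0.50 ± 0.06), with agD means near the DAPT means (MRTO4 9.97, 9.89 and 10.02 in DMSO, 9.33 with DAPT, 9.25, 9.28 and 9.50 with agD). Without DMSO array 2 this list had 6 called higher and 5 lower, so which direction held more members depends on that array, and NCL lost its call without DMSO array 3. Without array 2 the mitosis list had 3 called higher and 11 lower. Of 22 oxidative phosphorylation genes 12 were called lower and 3 higher, with a median of -0.18, among them the complex I subunits NDUFA9 (-0.54 ± 0.08), NDUFB8 (-0.46 ± 0.06) and NDUFB5 (-0.43 ± 0.07) against a rise of NDUFV1 (0.36 ± 0.06). Of 16 ribosomal proteins, RPL3 was called higher (0.20) and RPL27 lower (-0.14), the latter losing its call in 5 of the 6 fits without 1 array.

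The largest fall among the named genes was that of a nuclear RNA. MALAT1, a long non-coding RNA of nuclear speckles, measured 12.29, 11.36 and 12.41 in DMSO and 9.92, 9.93 and 10.36 with agD, a change of -1.95 ± 0.29 (adjusted p = 8.31e-05), with continued DAPT at 11.26 and Fc beads at 10.73, and all 12 of its probe sets were called lower, by -2.24 to -0.78. RUSC1-AS1 (8.87, 8.02 and 8.78 to 6.90, 6.81 and 7.14), FTX, a non-coding RNA of the X inactivation centre (7.98, 7.20 and 8.01 to 6.28, 6.34 and 6.53), and TAF1D, whose introns host small nucleolar RNAs (8.26, 7.61 and 8.35 to 6.85, 6.83 and 6.99), showed the same arrangement of arrays, with DMSO array 2 between its companions and agD. The same held for KANSL1L, GOLGA8A, SNORA21, ANKRD36B, LINC00342 and PABPC1L. Without DMSO array 2 the falls were larger, at -2.28 for MALAT1, -1.88 for RUSC1-AS1, -1.61 for FTX and -1.41 for TAF1D, and all were still called. IGFL1 and AQP3, by contrast, stood at -1.61 and -1.92 without it, near their values with all arrays. For SFXN3 (-1.35) the other 2 probe sets changed by -0.08 and -0.01, so 1 of its 3 probe sets carried the fall. The other probe sets of KANSL1L changed by -0.26 to 0.13, and that of GOLGA8A by -0.28, and none of them was called. PABPC1L had another probe set called lower at -0.66 and 1 not called at 0.03. Of 14 non-coding RNAs on the list, 6 were called lower and 0 higher, including GAS5 (-0.76 ± 0.16) and DANCR (-0.42 ± 0.06). Among all genes 12.6% were called lower and 17.9% higher. Of 24 splicing factors, 12 were called lower and 2 higher: the kinases CLK1 (-0.63 ± 0.11) and CLK4 (-0.52 ± 0.10), TRA2A (-0.58 ± 0.07) and SRSF10 (-0.49 ± 0.06) fell, and HNRNPU (0.54 ± 0.09) rose. Without DMSO array 2 the lists of non-coding RNAs, splicing factors and oxidative phosphorylation had 7, 13 and 13 members called lower.

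Large falls were more frequent in probe sets other than the brightest of a gene. When all 54613 probe sets other than controls were fitted, 6098 were called higher (11.2%) and 6513 lower (11.9%), and at 2-fold or more 24 were higher (0.0439%) and 383 lower (0.701%). Among 11721 probe sets with no gene symbol, 447 were called higher (3.81%) and 1286 lower, so that 74.21% of the calls were falls, and at 2-fold or more the counts were 0 and 157 (1.34%). Among the 21316 dimmer probe sets of genes with several, 2332 were called higher (10.9%) and 2664 lower (12.5%), and 11 (0.0516%) rose and 176 (0.826%) fell at 2-fold or more. Of 5112 genes with several probe sets and any call, 290 had calls in both directions. Control probe sets moved with this pattern. The probe set for Alu repeats measured 12.43, 12.21 and 12.38 in DMSO and 11.87, 11.75 and 11.9997 with agD (difference -0.47, exact permutation p = 0.1, two-sided, the smallest that 3 against 3 arrays can give). The mean of 12 probe sets for poly-A spike RNAs, which the array maker supplies for addition to the sample before labelling, was 9.79, 9.67 and 9.82 in DMSO and 9.33, 9.32 and 9.44 with agD (-0.40, exact permutation p = 0.1), and the other 12 agonism arrays ran from 8.45 to 9.65. Those for hybridisation spikes differed by -0.13 (exact permutation p = 0.2). The 3′ minus 5′ difference of ACTB was 0.22 ± 0.047 (SD, n = 3) in DMSO and 0.16 ± 0.035 with agD, and the arrays overlapped (exact permutation p = 0.2). That of GAPDH was -0.127, -0.138 and -0.127 in DMSO and -0.171, -0.146 and -0.155 with agD, without overlap (exact permutation p = 0.1). The part of these differences in the falls was not tested.

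**Figure D5:**
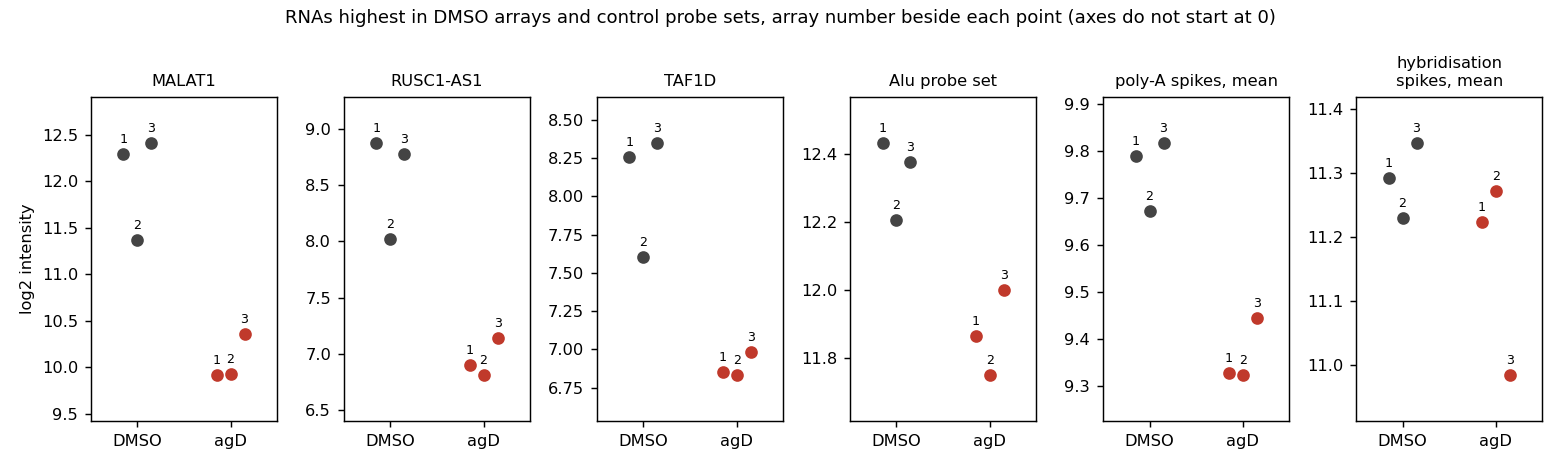
Log2 intensity of MALAT1, RUSC1-AS1 and TAF1D, of the Alu repeat probe set and of the means of the poly-A and hybridisation spike probe sets, in the 3 DMSO (grey) and 3 washout with IgG arrays (red), with the array number beside each point. In the first 5 panels every DMSO array lies above every agD array and DMSO array 2 is the lowest of its group; in the last the groups overlap.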

How the data were processed

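Expression was measured on Affymetrix HG-U133 Plus 2.0 arrays, which carry short probes grouped into probe sets. The deposited table holds 1 linear intensity per probe set and array; the processing notes of the submitters list RMA and R 2.10 without saying what each did, and RMA, which equalises the arrays' distributions, would reduce a change shared by most transcripts. The authors' intensities were converted to log2. No array's depth exists, and the number of arrays limits the precision (median SE of a change 0.08).

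Of 54675 probe sets, 62 were controls, 41091 had 1 gene symbol, 1801 several and 11783 none (controls included); the genes of 41037 probe sets matched RefSeq (GRCh38.p14). For each of 19775 genes, the brightest probe set naming that gene alone (by mean of the 26 arrays) was used. Linear models with moderated variances (limma 3.58.1, R 4.3.3, no trend, not robust) covered 18 agonism arrays in 6 groups of 3 (12 residual degrees of freedom), with Benjamini-Hochberg adjustment over all genes, and were tested on simulated data. Arrays are numbered in listed order, since the labels give no replicate numbers or batches. The table held 0 columns of other samples. Figures used matplotlib 3.10.9 in Python 3.11.15.

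Members and lists were chosen with earlier results of these data known. The text names, among called genes whose arrays do not overlap, 15 with the most positive and 15 with the most negative change; each measured Notch receptor, ligand, fringe and target gene; MYC; and, of each other list, at most 6 called members, taken by size of change. Genes outside this rule, such as ATF4, ASNS, HSPA5 and those taken from the antagonism experiment, were named after their values were seen. Some list members are not analysed here. Alternatives were other scalings, offsets, probe-set choices, filters, variance models, array weights, a fit of the 2 groups alone and leaving out each array.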

Additional observations from a re-analysis of the deposited data

How the results depend on the processing

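The counts of genes called, called higher and called lower, and the positions of the genes chosen in the antagonism experiment, were recomputed under 16 alternatives. Leaving out 1 of the 6 arrays gave 4462 to 6682 genes called, 2464 to 3974 higher and 1930 to 2708 lower. Of the genes lowered by DAPT, 10 to 13 were then called higher and 9 to 9 lower, and of those raised, 19 to 21 higher and 5 to 7 lower. When probe sets with the suffix _x_at or _s_at were dropped, which can detect related transcripts, 2310 genes were called higher and 6 of the genes lowered by DAPT were called higher, since fewer probe sets are tested and other probe sets then stand for the genes. Under the same choice the sign turned for HES1 (-0.0594), SLC1A4 (-0.33), YARS1 (-0.44), HERPUD1 (-0.30), AKR1C2 (0.16), INHBA (-0.14), GINS2 (0.0808), CHAF1A (-0.0288), FN1 (-0.0628) and MCL1 (-0.44), and with the mean of all probe sets of a gene for SFRP1 (-0.0136) and FOXA1 (-0.61). Median centring over the genes tested, an alternative chosen after seeing the data, gave 5598 calls, 5103 of them shared. The fit of the 2 groups alone gave 4678 calls, 4611 shared. Of 218 named genes called, 189 were called in every fit without 1 array, and 163 kept call and sign in every alternative that held the gene. No paired analysis was possible because the labels give no replicate numbers. Intensities carry no detection calls, so dim genes such as ZSCAN4 have no stated background.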
